A study of Caenorhabditis elegans with 12 samples.

Results

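Vitellogenins are the yolk proteins of Caenorhabditis elegans, and 10 of the 13333 probe sets tested on these arrays were annotated to their genes. Members were taken by name, as every probe set that the platform annotation assigns to vit-1, vit-2, vit-3, vit-4, vit-5 or vit-6. The choice of this family was made with earlier results of these data known. One probe set each stood for vit-1 (177065_at) and vit-2 (191323_at), and 2 stood for vit-6 (190649_at and 173411_s_at). vit-4 alone had 3 probe sets (171723_x_at, 172134_x_at and 172673_x_at), vit-5 alone had 1 (172696_x_at), and 2 more (172133_x_at and 194239_x_at) were assigned to vit-4 and vit-5 together. No probe set in the value table carried the name vit-3.

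Vitellogenins are large lipoproteins of the same superfamily as vertebrate apolipoprotein B. In adult hermaphrodites the intestine makes them and secretes them into the body cavity, and growing oocytes take them up by endocytosis through the receptor RME-2. Embryos and newly hatched larvae then consume the yolk. The protein of vit-6 is cleaved after secretion into smaller yolk polypeptides, while those of the other vit genes stay in 1 piece. Their mRNAs are known as very abundant intestinal messages of the adult hermaphrodite, absent from larvae and males.

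The study compared the wild-type strain N2 with worms carrying the allele bn127 of ife-1, a gene for a germline isoform of the cap-binding translation factor eIF4E. Each genotype was grown as 3 mixed populations of worms, eggs and larvae, which were harvested apart, for a last passage of 3 days at 20 °C. Both genotypes were fed OP50 bacteria with added chicken egg yolk. Lysates were run on sucrose gradients of 10 to 45%, and RNA below the 80S ribosome peak (nonpolysomal, NP) and above it (polysomal, P) was hybridised to separate arrays, giving 12 arrays with 3 per genotype and fraction. The wild-type and mutant cultures of a growth set share its number.

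Mixed stages limit what a signal from these worms can mean, since vit mRNA comes from adults alone. In such bulk samples, more cells or animals of a type and more RNA per cell cannot be told apart. The ife-1 probe set read 3567 to 5997 on the 6 wild-type arrays and 62.3 to 177.7 on the 6 mutant arrays, where it was never called present. Median signals ran from 367.3 to 428.6 over the arrays.

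vit-1, vit-2, vit-4 and vit-5 lie on the X chromosome and vit-6 on chromosome IV. In the RefSeq gene table of assembly WBcel235, vit-3 (F59D8.1) is the direct neighbour of vit-4 (F59D8.2). Probe sets ending in _x_at or _s_at can bind more than 1 transcript by the array's naming, so all probe sets of vit-4 and vit-5 and 1 of those for vit-6 are not specific to a gene. These members therefore share targets and are not independent measurements. 172673_x_at stands apart, because its array descriptor is marked as a reverse complement, and its strand was not tested here. It was called present on 0 of 3 wild-type nonpolysomal, 1 of 3 wild-type polysomal and all 6 ife-1 arrays, whereas the other 9 were present on all 12 arrays. The deposited table holds 3 replicate blocks of 4 arrays, and in each block no tested probe set had fewer than 2 present calls, which 172673_x_at reached through its ife-1 arrays. It therefore had to differ, and its values are given as a description, with counts of calls read over the other 9.

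Vitellogenin signals were higher in the ife-1 cultures than in the wild type. In the deposited signals, all 10 probe sets, the 9 present on every array among them, read above the wild-type array of the same growth set in each of the 3 sets and in both fractions, which held for 25.2% of all probe sets. In those 9 the ratios of ife-1 over wild type lay between 1.01 (172133_x_at, polysomal RNA of set 2) and 3.19 (vit-1, nonpolysomal RNA of set 2). The 10 together made up 0.701 to 0.988% of the summed deposited signal on wild-type arrays and 1.00 to 1.29% on ife-1 arrays.

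**Figure D1:**
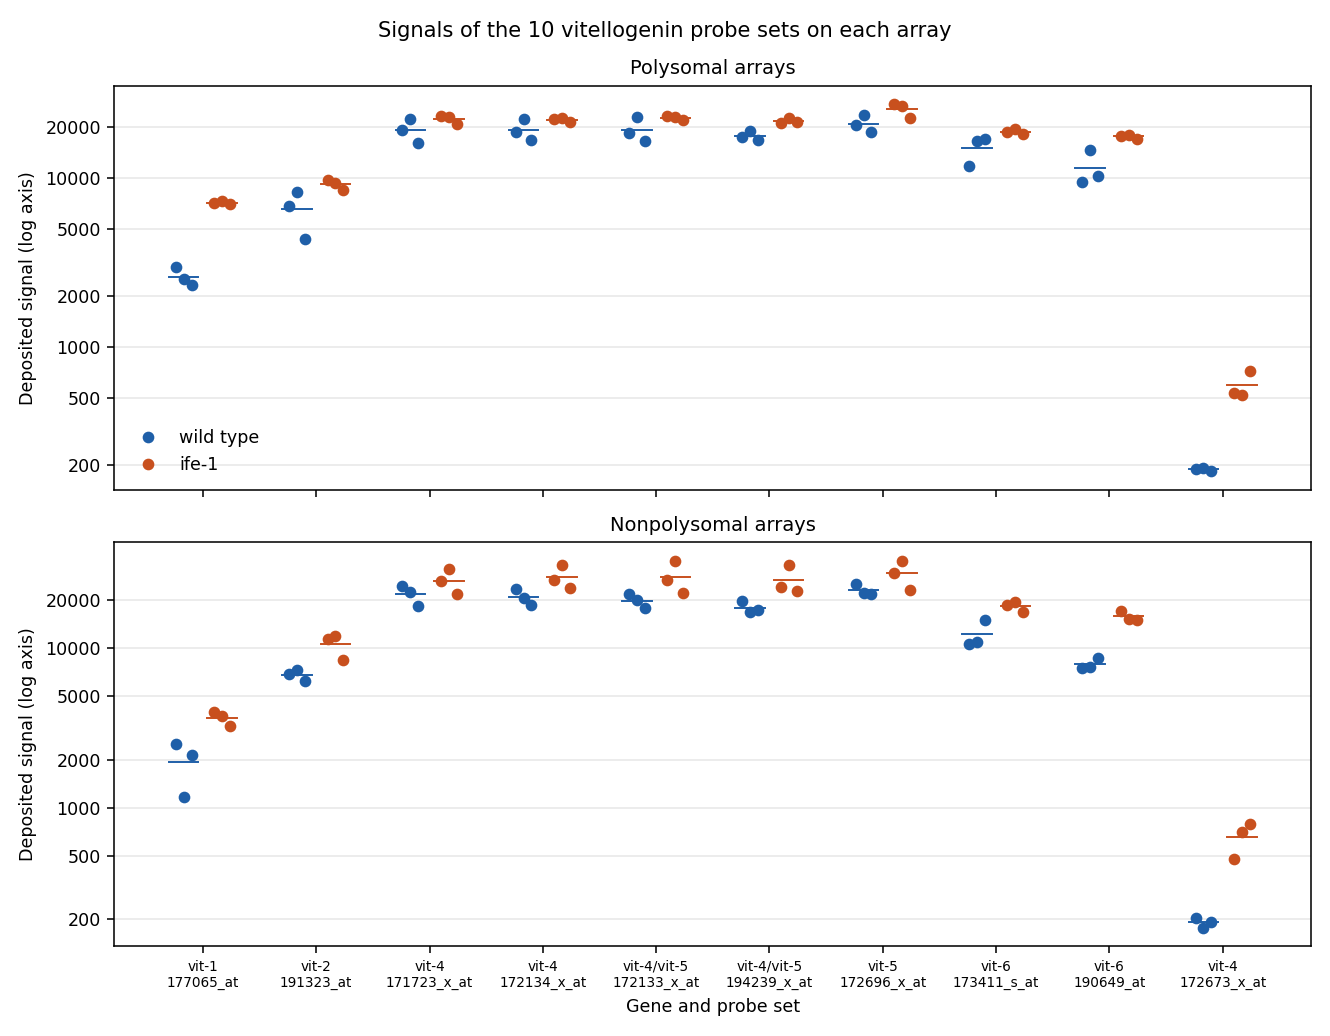
Deposited signal (log axis) of each vitellogenin probe set on each array, with polysomal arrays above and nonpolysomal arrays below. Points are single arrays in the order of sets 1, 2 and 3, and short lines are means of 3. In nonpolysomal RNA of vit-6 190649_at, for example, the wild type read 7497 to 8676 and ife-1 read 14962 to 16996.

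vit-1 had the highest polysomal ratio of these 9, a geometric mean of 2.75. Its polysomal signals were 2966, 2530 and 2327 in the wild-type sets and 7119, 7268 and 6983 in the ife-1 sets. Its nonpolysomal signals were 2491, 1173 and 2147 in the wild type and 3994, 3748 and 3225 in ife-1. The genotypes did not overlap in either fraction, and wild-type set 2 was lowest in nonpolysomal RNA.

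Both probe sets of vit-6, the gene of the cleaved yolk protein, were also higher. The polysomal signals of 190649_at were 9519, 14724 and 10326 in the wild type against 17741, 17958 and 17045 in ife-1, with wild-type set 2 nearest to the mutant. Its nonpolysomal signals were 7497, 7548 and 8676 against 16996, 15290 and 14962, again without overlap. The second probe set, 173411_s_at, was also free of overlap, but wild-type set 3 came close, with nonpolysomal signals of 14994 in the wild type and 16884 in ife-1.

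vit-2 was also higher, with geometric mean ratios of 1.45 in polysomal and 1.54 in nonpolysomal RNA. Its polysomal signals were 6829, 8312 and 4381 in the wild type and 9661, 9370 and 8449 in ife-1, so wild-type set 2 nearly reached ife-1 set 3. Its nonpolysomal signals were 6855, 7229 and 6257 against 11356, 11896 and 8409.

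The 5 bright probe sets of vit-4 and vit-5 differed least in the deposited signals. For vit-5 (172696_x_at) the polysomal signals were 20568, 23529 and 18813 in the wild type and 27288, 26813 and 22479 in ife-1. Its nonpolysomal signals were 25037, 22213 and 21764 against 29454, 35191 and 23150. Here the genotypes overlapped in both fractions, since ife-1 set 3 fell below wild-type set 2 in polysomal RNA and below wild-type set 1 in nonpolysomal RNA. Geometric mean ratios of ife-1 over wild type for these 5 lay between 1.16 and 1.22 in polysomal RNA and between 1.21 and 1.48 in nonpolysomal RNA.

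The same 5 probe sets nevertheless moved far in rank. vit-5 stood at ranks 28, 6 and 49 of all probe sets on the wild-type polysomal arrays and was the brightest on all 3 ife-1 polysomal arrays. On nonpolysomal arrays its ranks were 109, 140 and 107 in the wild type and 1, 2 and 2 in ife-1. The brightest probe set on each ife-1 array belonged to vit-4 or vit-5, while collagen probe sets led 5 of the 6 wild-type arrays. Ranks depend on probe affinity as well as on RNA, and they bear on the next step, quantile normalization, which replaces each signal by the mean signal of its rank. An mRNA at the top of an array has little room there, and vit-5 received the same normalized value on all 3 ife-1 polysomal arrays.

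Combined abundance was then compared as log2(P + NP) of the normalized signals in each culture, in which both fractions count the same even if their RNA yields differed. All 9 probe sets present on every array were higher in ife-1 at an adjusted p under 0.05 in limma, against 21.0% of all probe sets, and 172673_x_at was the tenth. In each of them the 3 ife-1 cultures lay above the 3 wild-type cultures, as they did for 29.5% of all probe sets. The median difference was 0.66 on the log2 scale over the 10 and 0.65 over the 9, compared with 0.06 over all probe sets.

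For vit-1 the summed level was 12.42, 11.91 and 12.18 in wild-type sets 1 to 3 and 13.59, 13.54 and 13.43 in ife-1, in log2 units. The difference of 1.35 ± 0.17 (SE, n = 3 cultures per genotype) is 2.55-fold and had an adjusted p of 0.00176 in limma. For vit-6 the differences were 0.98 ± 0.19 in 190649_at (adjusted p 0.00649) and 0.63 ± 0.18 in 173411_s_at (adjusted p 0.0298), so the 2 probe sets of this gene differed in size but not in direction. vit-2 was higher by 0.80 ± 0.20 (adjusted p 0.0166).

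The bright vit-4 and vit-5 probe sets rose by 0.52 to 0.67, or 1.43- to 1.59-fold. The smallest of these, vit-4 171723_x_at, had an adjusted p of 0.0341, and of 0.0560 with the growth set as a block. Among them, vit-5 rose by 0.59 ± 0.14 (adjusted p 0.0140), from levels of 15.26, 15.36 and 15.19 to 15.88, 15.84 and 15.84. The reverse-complement vit-4 probe set 172673_x_at read 177.5 to 205.1 in the wild type and 478.6 to 790.0 in ife-1. It was not called present in wild-type nonpolysomal RNA. Its normalized difference in that fraction was 3.45-fold, a point estimate and no bound, and its deposited ratios there were 2.33, 3.98 and 4.13 in sets 1 to 3.

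**Figure D2:**
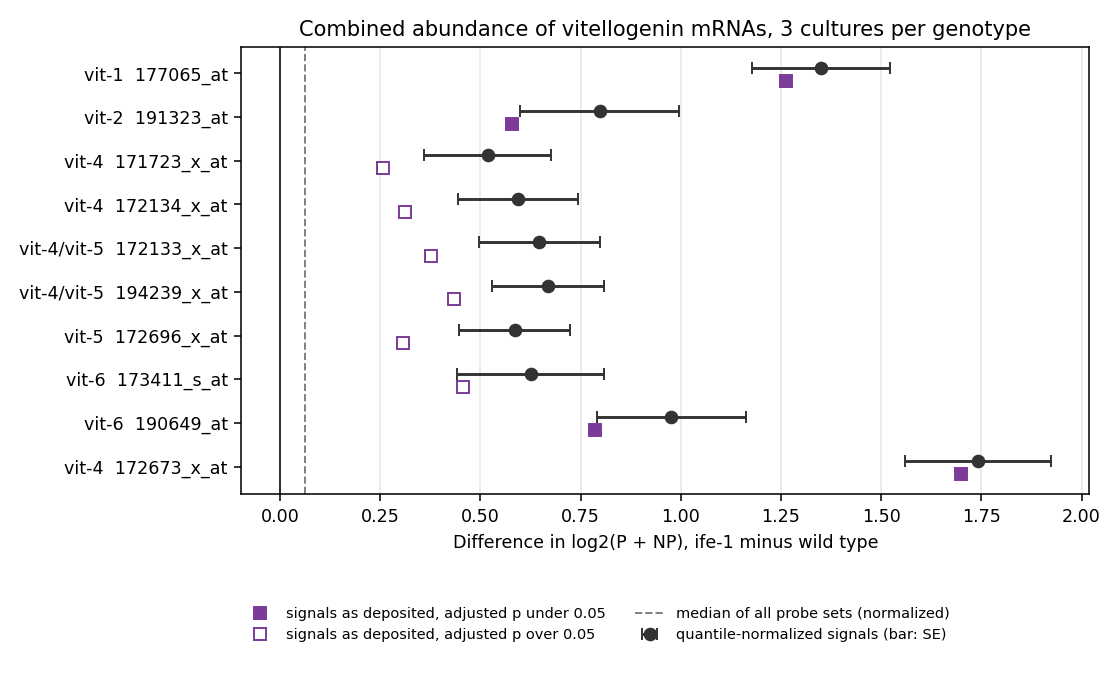
Difference in log2(P + NP) between ife-1 and wild type for each vitellogenin probe set, 3 cultures per genotype. Circles with SE bars come from quantile-normalized signals and squares from signals as deposited, filled where the adjusted p was under 0.05. All values are above 0 and above the dashed median of all probe sets, with vit-1 at 1.35 and 1.26 and vit-4 171723_x_at at 0.52 and 0.26, and 172673_x_at is drawn as a description.

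How many of the 10 passed the test depended on the scaling. Without normalization between arrays, those of the 9 present on every array that passed were vit-1 (1.26), vit-2 (0.58) and vit-6 190649_at (0.79). With 172673_x_at (1.70), which had to differ, this makes 4 of the 10. Of all 13333 probe sets, 2931 were then higher and 2839 lower. The bright vit-4 and vit-5 probe sets did not pass, at 0.26 to 0.44. Leaving out both cultures of set 1 or of set 3 left 2 calls, vit-1 as the only one of the 9 and 172673_x_at. The calls over all probe sets fell with them, from 2804 to 141 and 596 higher. Leaving out ife-1 set 1 or ife-1 set 3 alone left 4 and 5, with 172673_x_at among them. All 10 differences stayed above 0 under these settings.

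The authors' deposited table gives the same contrast as a mean ratio of wild type over ife-1 in the sum NP + P. There vit-1 stands at 0.422, vit-2 at 0.671 and vit-6 at 0.584 and 0.740. The bright vit-4 and vit-5 probe sets range from 0.743 to 0.837, and 172673_x_at is at 0.313. All 10 are below 1 in the authors' deposited table.

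Each fraction was also compared between the genotypes on its own. In nonpolysomal RNA 8 of the 9 probe sets present on every array were higher in ife-1 after normalization, against 14.1% of all probe sets, by 0.77 to 1.20. vit-1 was the remaining one, at 0.91 ± 0.29 with an adjusted p of 0.0508. In polysomal RNA 2 of the 9, vit-1 (1.63 ± 0.17, adjusted p 0.00125) and vit-6 190649_at (0.86 ± 0.25, adjusted p 0.0324), were higher, against 18.9% of all probe sets. 172673_x_at also passed in both fractions, which makes 9 and 3 of the 10. These counts are no test of a difference between the fractions, and with deposited signals both were 3.

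vit-2 (0.78 ± 0.28, adjusted p 0.0643) missed the threshold in polysomal RNA. The bright vit-4 and vit-5 probe sets differed there by 0.30 to 0.39 without passing, as did vit-6 173411_s_at by 0.47. In nonpolysomal RNA as deposited, the bright vit-4 and vit-5 probe sets, vit-2 and vit-6 173411_s_at no longer passed while vit-1 did (0.98, adjusted p 0.0395). Without set 1 or without set 3 the nonpolysomal count was 0, where 7 and 2 of all probe sets were higher. Without ife-1 set 1 or set 3 it was 4 and 5. In polysomal RNA, leaving out set 1 kept vit-1 alone, and leaving out any single culture other than wild-type set 2 ended the call for vit-6 190649_at.

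Whether ife-1 changed how much of a vit mRNA sat on polysomes was asked with the association log2(P/NP) of each culture, compared between genotypes. No vitellogenin probe set passed the test in either direction in limma, where 0.128% of all probe sets did. An unadjusted p under 0.05 in limma was reached by 5 of the 10, and by 0 with deposited signals. These were vit-1 and the vit-4 and vit-5 probe sets 171723_x_at, 172133_x_at, 172134_x_at and 194239_x_at, which share targets. The share of all probe sets under that unadjusted p was not counted. In 1 probe set all ife-1 cultures lay above the wild type and in 6 they lay below, while 3 overlapped. Over all probe sets 14.8% lay above and 12.4% below.

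The member that lay above after normalization was vit-1. Its polysomal share, P/(P + NP) of the normalized signals, was 53.7, 67.0 and 51.4% in wild-type sets 1 to 3 and 67.1, 69.2 and 71.0% in ife-1. Wild-type set 2 thus all but touched ife-1 set 1, and the mutant cultures were the more uniform. The difference in log2(P/NP) was 0.72 ± 0.28 (adjusted p 0.195), and it ran from 0.48 without set 3 to 1.01 without wild-type set 2. With deposited signals it was 0.48 and the genotypes overlapped, since wild-type set 2 had a share of 68.3% and ife-1 sets 1 and 2 had 64.1 and 66.0%. Scaled on bacterial control probe sets, which moved the median of all probe sets to -0.47, it was -0.09. The authors' deposited table has a mean ratio of shares, wild type over ife-1, of 0.881 for vit-1 and of 1.02 to 1.11 for the other 9.

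The 6 that lay below were the 5 bright probe sets of vit-4 and vit-5 and vit-6 173411_s_at. For vit-4 172134_x_at the shares were 57.7, 64.0 and 56.7% in the wild type and 48.7, 48.7 and 47.8% in ife-1, a difference in log2(P/NP) of -0.65 ± 0.20 (adjusted p 0.141). For 194239_x_at they were 59.7, 64.8 and 58.6% against 51.0, 47.5 and 50.5%, with -0.67 ± 0.20 (adjusted p 0.131). On the ife-1 arrays these 2 stood at ranks 1 to 11 in both fractions, where normalized values differ little, so that shares come near 50%. In the wild type their ranks were 9 to 76 in polysomal and 137 to 218 in nonpolysomal RNA. For both probe sets, every mutant culture sat under the lowest wild-type culture after this normalization.

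That gap narrowed when the deposited signals were used without normalization. The shares of 172134_x_at were then 44.5, 51.9 and 47.3% in the wild type and 45.8, 40.6 and 47.4% in ife-1, and those of 194239_x_at were 47.0, 53.0 and 49.3% against 46.7, 40.5 and 48.3%. The genotypes overlapped in both. Over the 10 probe sets the median association difference was -0.41 with normalization and -0.15 without it, against 0.03 and 0.10 over all probe sets.

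**Figure D3:**
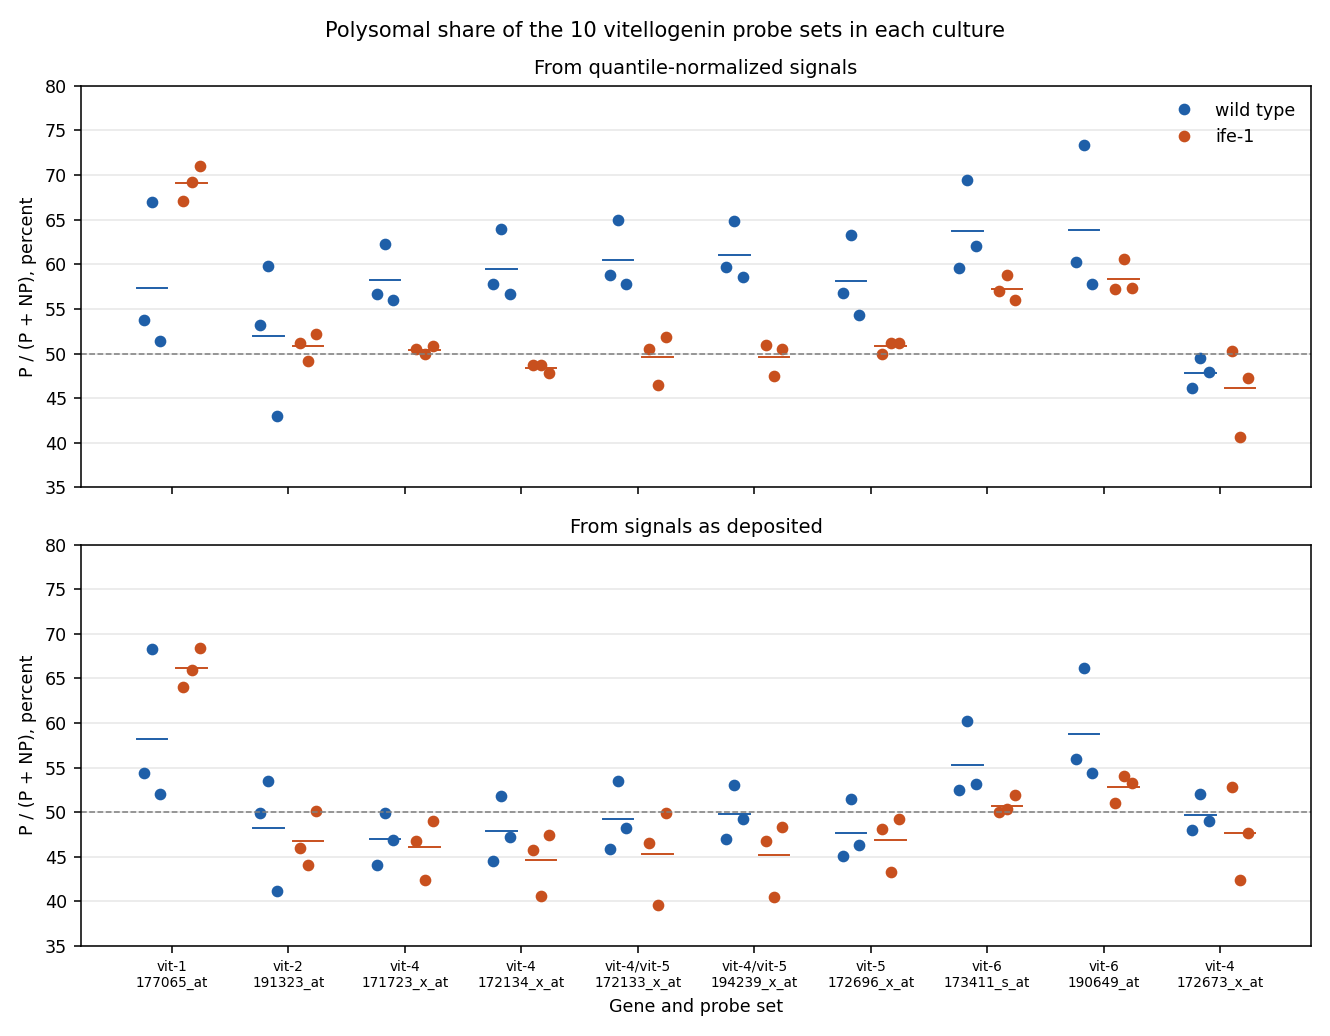
Polysomal share P/(P + NP) in percent for each vitellogenin probe set and culture, from normalized signals above and from deposited signals below. The axis starts at 35%, points are cultures of sets 1, 2 and 3 in that order, and short lines are means of 3. The ife-1 cultures of vit-1 lie at 67.1 to 71.0% above and 64.1 to 68.4% below, while the wild-type culture of set 2 is the highest of its genotype for every probe set.

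vit-2 and the other vit-6 probe set overlapped. The log2(P/NP) of vit-2 was 0.18, 0.58 and -0.41 in the wild type and 0.07, -0.05 and 0.13 in ife-1, and its association difference of -0.07 ± 0.27 was 0.16 without wild-type set 2 and -0.37 without set 3. For vit-6 190649_at the shares were 60.3, 73.3 and 57.8% against 57.2, 60.6 and 57.3%, with an association difference of -0.35 ± 0.29 that ran from -0.54 without wild-type set 3 to -0.038 without wild-type set 2.

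The wild-type culture of set 2 had the highest polysomal share of the 3 wild-type cultures in all 10 probe sets, with normalized and with deposited signals, where 40.1% and 43.1% of all probe sets had it there. This culture also stood apart in sperm transcripts, with a summed signal of 34372 over 8 sperm markers against 100928 and 94832 in wild-type sets 1 and 3. Whether the 2 are linked was not tested.

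Since the vit-1 estimate had the opposite sign, vit-1 was set against each of the other 9 probe sets on the same arrays. Multiplying a whole array by a factor cannot change this ratio, but quantile normalization can. This comparison was chosen after the values were seen, and its values are a description with no test. In the deposited signals, the log2 ratio of vit-1 to another member gained 0.52 to 0.84 more in P over NP in ife-1 than in the wild type. The gain was above 0 for all 9, but the genotypes overlapped for 171723_x_at, 172696_x_at and 172673_x_at. With normalized signals the gains were 0.79 to 1.39. The 9 ratios share the vit-1 probe set.

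The highest gain was that of vit-1 over vit-6 190649_at. On the log2 scale its excess in P over NP lay between -0.14 and 0.14 in the wild type, with a mean of -0.03, and between 0.72 and 0.93 in ife-1, with a mean of 0.81. In summed level, vit-1 gained on 8 of the other 9, by 0.48 to 1.01 with deposited signals, and not on 172673_x_at (-0.44). The smallest of these gains, on vit-6 190649_at, came with overlapping genotypes.

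Within a genotype, the side of the gradient on which a vit mRNA lay depended on the scaling. After normalization 7 of the 10 were higher in polysomal than in nonpolysomal RNA in the wild type, against 26.5% of all probe sets, with vit-6 highest at 0.84 ± 0.20 (190649_at) and 0.82 ± 0.16 (173411_s_at). None was lower, and vit-1, vit-2 and 172673_x_at did not pass. With deposited signals 1 passed, vit-6 190649_at at 0.52, and 7 of the 10 estimates were below 0. With quantile normalization within each fraction it was also 1, and with median scaling 0. Without set 1 the count was 3, and 5 without set 2 or without set 3.

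In ife-1, vit-1 was the only vitellogenin probe set that passed, at 1.16 ± 0.19 (adjusted p 0.00184), against 22.7% of all probe sets that were higher. This call held with deposited signals (0.97, adjusted p 0.00390) and with normalization within fractions (1.02, adjusted p 0.00335). vit-6 had 0.49 ± 0.20 and 0.42 ± 0.16 without passing, and the other 7 lay between -0.23 and 0.05. After normalization within fractions 3 of these were lower, where 3152 of all probe sets were, namely 172133_x_at (-0.43), 172134_x_at (-0.50) and 194239_x_at (-0.43). Without wild-type set 2 the count of higher calls was 3.

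The intestine makes yolk and the oocyte takes it up, so the markers of both tissues were measured in the same way. All marker lists were chosen with earlier results of these data known. Of 12 intestinal markers, all measured, 1 was higher in combined abundance and 6 were lower, against 21.0% and 18.5% of all probe sets, with a median difference of -0.50. The higher marker was cpr-6, a cathepsin B-like protease (1.34-fold, adjusted p 0.0486). pho-1, an intestinal acid phosphatase, was at 0.253-fold (adjusted p 0.000937), and ifb-2, an intestinal intermediate filament, at 0.336-fold (adjusted p 0.00145). Their summed signal was 122413 to 139148 in the wild type and 113115 to 116035 in ife-1, where that of the vitellogenins was 229707 to 272750 and 382705 to 399463. Without set 1 or without set 3, 2 intestinal markers were lower, and 3 without ife-1 set 1. cpr-6 did not pass with deposited signals or with the growth set as a block.

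Of 12 markers of oocytes and eggshell, 12 were higher, against 21.0% of all probe sets, with a median difference of 1.17. oma-2, a zinc finger protein of maturing oocytes, was at 2.50-fold (adjusted p 0.00309) and chs-1, the eggshell chitin synthase, at 3.22-fold (adjusted p 0.00127). Their summed signal was 66680 to 79018 in the wild type and 129131 to 162329 in ife-1. Without set 1 the count was 1, and 5 without set 3. Of the 6 larval moult markers measured, 5 were lower, against 18.5% of all probe sets, and their sum was 22916 to 31324 against 13301 to 15734. The sums of oocyte and vitellogenin transcripts were thus higher in every ife-1 culture than in any wild-type culture. Those of intestinal and larval transcripts were lower, also without overlap.

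Of 6 neuronal markers, 5 were lower, and of 6 muscle markers, 3 were lower, against the same 18.5% of all probe sets. Their sums were lower in ife-1 without overlap as well. They were 28123 to 30891 against 17898 to 21244 for neurons and 82828 to 84770 against 66807 to 78936 for muscle. Without set 1, 0 neuronal and 3 larval markers passed. Of the 8 sperm markers measured, 0 passed at the adjusted threshold in limma, with a median of -0.56. The sperm sum was 34372 to 100928 in the wild type and 39438 to 45078 in ife-1. The part of the makeup of the cultures in the vitellogenin difference was not tested.

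**Figure D4:**
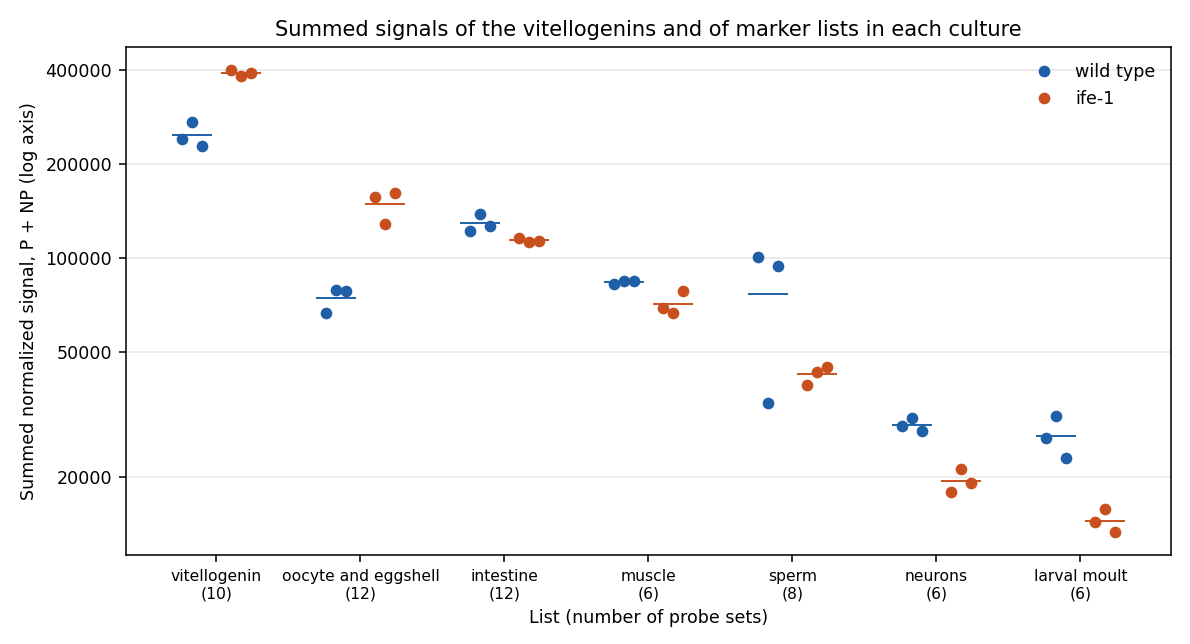
Summed normalized signal of P and NP (log axis) over the 10 vitellogenin probe sets and over marker lists, in each culture. Points are cultures of sets 1, 2 and 3 in that order and short lines are means of 3. Vitellogenin and oocyte sums are higher in every ife-1 culture than in any wild-type culture. Larval moult, neuron, intestine and muscle sums are lower, and wild-type set 2 is low in sperm markers.

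The genes that serve yolk production and uptake were compared in the same way. Of the 26 on the list, 24 were measured, mab-3 and daf-2 being without a probe set of their own among those tested. In combined abundance 5 were higher, 2 lower and 17 did not pass, with a median of 0.29. The share of the list that was higher was near the 21.0% of all probe sets, and the share that was lower was under the 18.5% of all probe sets, so the counts do not set the list apart. In association 0 passed in limma.

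Among the 10 measured regulators of vit transcription 2 were higher and 1 lower, against 21.0% and 18.5% of all probe sets. rict-1, the Rictor subunit of TOR complex 2, was higher by 1.75 ± 0.22 (adjusted p 0.00176), and tra-1, the Gli-type factor of somatic sex determination, by 0.61 ± 0.19 (adjusted p 0.0395). pqm-1, a zinc finger transcription factor, fell by 0.71 on the log2 scale (adjusted p 0.0161). Of the 9 ways of leaving out a set or a culture, the call for tra-1 was kept only without wild-type set 3, with values of 0.42 to 0.71 in all 9. The call for pqm-1 was lost without set 1, set 3, ife-1 set 1 or ife-1 set 3, at -0.73 to -0.61, and with scaling on bacterial controls, at -0.45.

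The transcription factors unc-62, ceh-60 and elt-2, known to activate vit genes in the intestine, did not pass. unc-62, a TALE homeodomain protein, was at -0.20 ± 0.20, and ceh-60, its Pbx-type partner, at -0.46 ± 0.26. elt-2, the GATA factor of the intestine, was at -0.57 ± 0.35, and it ran from -0.18 without set 2 to -1.10 without set 3 and passed at -0.96 without wild-type set 3. ceh-60 ran from -0.069 without set 3 to -0.85 without set 2, where it passed.

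dsc-4, the microsomal triglyceride transfer protein that loads lipid onto vitellogenin, fell by 1.21 on the log2 scale (adjusted p 0.00433). Without set 1 its adjusted p was 0.05002, and without set 3 it was 0.0590. Its probe set is of the _s_at kind.

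Of the 12 uptake genes 3 were higher, against 21.0% of all probe sets, and 9 did not pass. rme-2, the yolk receptor of the oocyte, was higher by 0.83 ± 0.18 (adjusted p 0.00990), and rme-6, an activator of the endosomal GTPase RAB-5, by 1.42 ± 0.17 (adjusted p 0.00143). dyn-1, the dynamin that cuts coated vesicles free, was higher by 0.99 ± 0.17 (adjusted p 0.00465). Without set 1, without set 3 or without ife-1 set 1 the call for rme-2 was lost, at 0.74 to 0.90, and that for dyn-1 without set 3, at 0.95. cpl-1, the cathepsin L that breaks down yolk in embryos, was at 0.27 ± 0.16 and did not pass.

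The vitellogenin probe sets resembled each other to different degrees. Over the 12 arrays, normalized signals of the 5 bright vit-4 and vit-5 probe sets correlated at 0.96 to 0.99 with each other, and these can bind each other's transcripts. The 2 vit-6 probe sets correlated at 0.95, and vit-1 with vit-2 at 0.73. All of these values include the difference between the genotypes and fractions. Of the deviations from group means, those of vit-1 and vit-2 correlated at 0.16. Those of vit-2 and the 5 bright vit-4 and vit-5 probe sets correlated at 0.54 (194239_x_at) to 0.90 (171723_x_at). With vit-6 those of vit-2 correlated at 0.60 (190649_at) and -0.07 (173411_s_at), and with 172673_x_at at -0.23.

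Among the brightest probe sets of 5308 other genes, the 8 with signals most like the mean vitellogenin profile over the 12 arrays were prpf-4 (Pearson r of 0.98), nucl-1, utx-1, hsp-1, tyms-1, mcm-3 and pqn-65 (each 0.97) and zer-1 (0.95). prpf-4 encodes a splicing-related kinase, nucl-1 nucleolin, utx-1 a histone demethylase, hsp-1 a cytosolic Hsp70, tyms-1 thymidylate synthase and mcm-3 a subunit of the replicative helicase. The vitellogenin profile is itself higher on the ife-1 arrays, so the choice fixed that these genes are higher there too, and their differences in combined abundance, from 0.50 (hsp-1) to 1.69 (utx-1), are a description with no test. The 12 points fall into 4 groups of genotype and fraction, so part of the likeness is that of the groups. Within the 6 wild-type arrays the 8 correlated at 0.83 to 0.97 with the vitellogenin profile, and within the 6 ife-1 arrays at 0.22 (pqn-65) to 0.96 (tyms-1).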

How the data were processed

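Probe set signals of 12 Affymetrix arrays were used as the authors deposited them, in intensity units on a linear scale, described per the labels as raw signal from the Affymetrix files. No software name or scaling step was given in the sources used here. Detection calls, deposited per group, came from a table that the authors had filtered from 22626 to 13372 probe sets, per the file headers. The same table holds the authors' deposited ratios (mean fold, wild type over ife-1) of P/(NP+P) and of NP+P. It has 36 other columns of per-sample values, which were not used.

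Signals of 39 control probe sets were dropped, 5 values below 1 were raised to 1, and quantile normalization was applied to the log2 signals of all arrays together. Association is log2(P/NP) and combined abundance log2(P + NP) in a culture. Genotypes were compared in limma 3.58.1 (lmFit and eBayes) under R 4.3.3 over 13333 probe sets, with Benjamini-Hochberg adjustment and a threshold of 0.05. The fit was tested on simulated data. Figures were drawn with matplotlib 3.10.9 and pandas 2.3.3 in Python 3.11.15. The number of arrays limits the precision.

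Gene names came from the platform annotation. Text names all vitellogenin probe sets, the 8 genes most alike, and from a fixed pathway list the yolk receptor, lipid loading, main regulators and any member past the threshold. Marker genes are given as examples. Members and lists were chosen with earlier results of these data known. For a gene with several probe sets outside the vitellogenins, the brightest was used.

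Alternatives were other scalings, an offset of 50, brighter probe sets alone, a variance trend, the growth set as a block, other outcomes, and leaving out cultures or sets. The deposited outline of the procedure pairs wild-type and mutant cultures by growth set. Deviations of same-numbered cultures correlated at -0.032, -0.0627 and 0.0234 in association and -0.113, -0.0532 and 0.13 in abundance.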

Additional observations from a re-analysis of the deposited data

Results flagged for a closer look

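In vit-4 172134_x_at, log2(P/NP) after normalization was above 0 in all 3 wild-type cultures, with a mean of 0.56, and below 0 in all 3 ife-1 cultures, with a mean of -0.09. The difference of -0.648 did not pass the association test (adjusted p 0.141 in limma). With deposited signals the wild-type mean was also below 0, at -0.12. On the ife-1 arrays this probe set stood at ranks 1 to 10 over both fractions, where normalized values differ little.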

How the results depend on the processing

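The combined-abundance differences stayed above 0 under every alternative run, for 10 probe sets or, among brighter probe sets only, for the 9 tested, and vit-1 passed in all of them, but the number of vitellogenin probe sets past the threshold did not hold. It was 10 as reported, 4 with signals as deposited, 4 with median scaling, 5 with scaling on bacterial controls and 2 to 10 when a set or culture was left out. Of all 13333 probe sets, 2931, 2860 and 3687 were higher under these scalings in that order. With the replicate block (growth set) the vitellogenin count was 9, as vit-4 171723_x_at had an adjusted p of 0.0560 in limma. The block changed no other vitellogenin call. Nonpolysomal calls fell from 9 to 3 as deposited, 4 with median scaling, 5 on bacterial controls and 0 to 9 with a set or culture left out. There 2074, 2181 and 3116 of all probe sets were higher under these scalings in that order. Polysomal calls rose from 3 to 6 with a variance trend, where 2634 of all probe sets were higher, and ran from 1 to 4 with one left out. For association, 0 were called and 0 to 0 with one left out. Among brighter probe sets only, 1 of 9 was called (194239_x_at, lower). In that setting 348 of 6666 probe sets were higher and 220 lower, against 4 and 13 of 13333 as reported. In the wild-type fraction difference 7 calls became 1 as deposited, 0 with median scaling, 1 with normalization within fractions, 3 on bacterial controls and 3 to 7 with one left out. Of all 13333 probe sets, 3713, 3116, 3965 and 5799 were higher under these scalings in that order. In ife-1, 1 higher call became 3 with the offset of 50, 3 among brighter probe sets and 1 to 3 with one left out. Of all probe sets, 3212 of 13333 and 2015 of 6666 were higher with the offset and among brighter ones. The 0 lower calls became 4 with median scaling and 3 with normalization within fractions, where 4139 and 3152 of all 13333 were lower. With one left out, lower calls were 0 to 0 throughout.

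Estimates that changed sign were these. For association, vit-1 was -0.092 on bacterial controls, vit-2 ran from -0.37 to 0.21 with one left out, above 0 without set 2 or wild-type set 2, and 172673_x_at from -0.27 to 0.10, above 0 without set 2 or ife-1 set 2. For abundance, unc-62 was 0.29 on bacterial controls, and cpl-1 was -0.037 with median scaling and -0.079 with the mean of log2 signals. Wild-type fraction differences as deposited were -0.18 (171723_x_at), -0.045 (172133_x_at), -0.12 (172134_x_at), -0.14 (172696_x_at), -0.11 (vit-2) and -0.013 (194239_x_at). With median scaling the same 6 were -0.30, -0.17, -0.25, -0.26, -0.23 and -0.14. With normalization within fractions they were -0.013 (171723_x_at), -0.028 (172696_x_at), -0.049 (vit-2) and 0.061 (172673_x_at), which was 0.51 on bacterial controls, and vit-2 ran from -0.11 (without set 2 or wild-type set 2) to 0.38 with one left out. In ife-1, as deposited, 171723_x_at was -0.23, 172696_x_at -0.18 and vit-2 -0.19. On bacterial controls they were -0.27, -0.22 and -0.23, with 173411_s_at at -0.00057. With median scaling the values were -0.42, -0.37, -0.38, -0.15 (173411_s_at) and -0.028 (190649_at), and with normalization within fractions -0.38, -0.36, -0.29, -0.085 and -0.015. With one left out, 172133_x_at ran from -0.086 to 0.068 and 194239_x_at from -0.058 to 0.042, both above 0 without set 2 or ife-1 set 2. The cause was not tested.

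Scaling on bacterial controls moved the median of all probe sets to -0.47 in association, 0.30 in abundance, 0.57 in nonpolysomal RNA and 0.52 in the wild-type fraction difference, and the vitellogenin medians were then -0.72, 0.75, 1.20 and 0.49. The sum P + NP counts both fractions the same, so no value here gives the amount of vit mRNA per worm. The number of arrays sets what could be called.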
